A study of Mus musculus with 6 samples.

Results

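The 10 genes described here encode keratins of the periderm and of simple epithelia: Krt4, Krt6a, Krt6b, Krt7, Krt8, Krt13, Krt17, Krt18, Krt19 and Krt23. They were taken as every probe set that the platform's annotation gives to 1 of these gene symbols alone, which found all 10 genes in 18 probe sets, of 18193 genes and 45037 probe sets in all. A further probe set, annotated to both Krt17 and Krt14, was left out. The measurements come from mouse embryonic back skin at E15.5, in which 3 samples from Fzd6 +/- embryos (called control) are compared with 3 from Fzd6 -/- embryos (called knockout), all of a C57BL6/129 mixed strain. Fzd6 encodes Frizzled 6, a Wnt-class receptor of planar cell polarity, by which hairs come to point one way along the skin. Controls also carry 1 mutant copy, so no wild-type skin enters. Samples are labelled as biological replicates, with no word on whether each is 1 embryo or on litters. Each value is the expression of a probe set on an Affymetrix MOE430 2.0 array, summarised by the RMA method and read on the log2 scale, so that a difference of 1 is a doubling.

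Keratins form the intermediate filaments of epithelial cells, and each filament is built from pairs of a type I and a type II chain. The periderm is the flat, transient outer layer of embryonic epidermis, which covers the stratifying layers and is shed as the skin barrier forms. It makes keratins that adult interfollicular epidermis has little of, among them those typical of simple, single-layered epithelia (Krt8, Krt18, Krt19) and those also made by activated or follicular keratinocytes (Krt6a, Krt17). Whole back skin holds dermis, vessels and muscle beside the epidermis. In such bulk samples fewer cells of a type and less RNA per cell cannot be told apart.

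All 10 keratins had a higher mean in knockout than in control skin, and none passed the test. The differences of the brightest probe sets ran from 0.15 for Krt18 to 1.83 for Krt13, with a median of 0.51, where the median over all 18193 genes was 0.0070 and 52.4% of genes were higher in the knockout. In limma, 0 of 18 keratin probe sets had an adjusted p under 0.05, as had 0 of 45037 on the whole array (0.0% called), and the smallest adjusted p among the keratins was 0.909. At an unadjusted p under 0.05, limma had 9 of the 18, all higher, where 2.58% of all probe sets were higher at that level. The 9 include all 3 probe sets of Krt13 and all 3 of Krt6a, which are repeated readings of a gene. By brightest probe set it was 5 of the 10 genes. The 10 keratins had been chosen with earlier results of these data known. In 5 of the 10 genes the 3 knockout arrays all lay above the 3 controls, against 6.99% of all genes. These 5 were Krt13, Krt6a, Krt6b, Krt7 and Krt23, and they were also the 5 with a difference of at least 0.5, which 1.23% of all genes had. By probe set the groups were apart in 9 of 18, against 6.55% of all probe sets. In Krt4, Krt17, Krt8, Krt18 and Krt19 the groups overlapped.

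**Figure D1:**
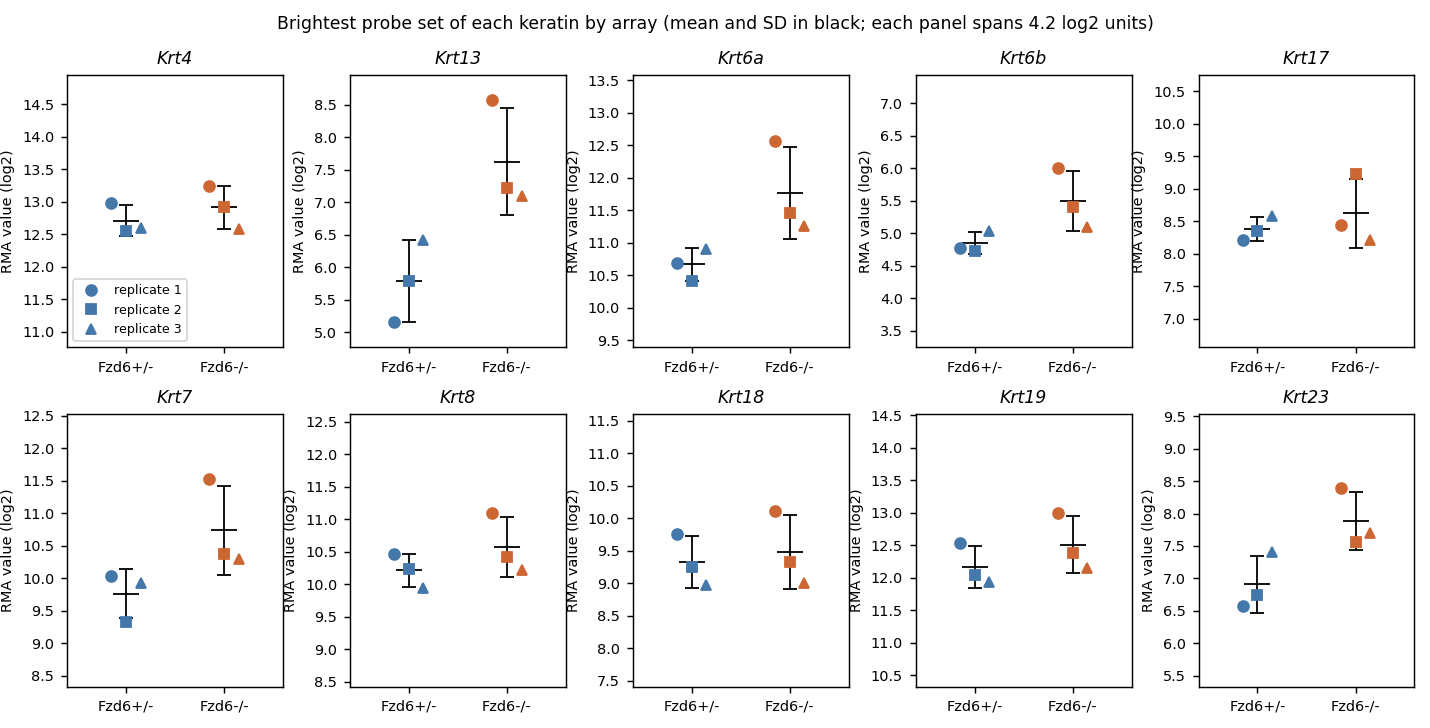
Values of the brightest probe set of each keratin on the log2 scale (y axis), by genotype (x axis), with a symbol for each replicate number and the mean and SD of 3 arrays in black. The groups are apart in Krt13, Krt6a, Krt6b, Krt7 and Krt23 and overlap in the other panels, and knockout 1 is the highest array in 9 of 10 genes.

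Krt4 and Krt13 are the type II and type I partners of internal stratified epithelia such as those of the mouth and oesophagus. Krt13 had the largest difference of the 10 and ranked 5 among 18193 genes ordered from most raised to most lowered. Its brightest probe set read 5.16, 5.78 and 6.42 in controls 1 to 3 and 8.57, 7.21 and 7.09 in knockouts 1 to 3. Every knockout array lay above every control, and the spread within each group was wide. The means were 5.79 ± 0.63 and 7.62 ± 0.82 (SD, n = 3), a difference of 1.83 with a 95% confidence interval of 0.80 to 2.87 (limma adjusted p = 0.909), or 3.57-fold. This level was low: the control mean and controls 1 and 2 lay below the array medians of 5.99 to 6.03, and no detection call was made, so the size of the fold and the rank are uncertain. The other probe sets of Krt13 were dimmer still, at 4.32 and 3.44 in controls. They differed by 0.66 (0.27 to 1.05) and 0.52 (0.18 to 0.86), again with no overlap between the groups.

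Krt4, by contrast, lay near the top of the measured range in every array. Its brighter probe set read 12.98, 12.55 and 12.59 in controls and 13.24, 12.92 and 12.58 in knockouts, so that knockout 3 lay within the controls. The means were 12.7 ± 0.24 and 12.9 ± 0.33, a difference of 0.20 (−0.23 to 0.64), and the other probe set gave 0.14 (−0.36 to 0.64). Within each array the value of Krt13 minus that of Krt4 was higher in the knockout by 1.63, with no overlap between the groups. The exact two-sided permutation test gave p = 0.1, the smallest that 3 arrays against 3 allow, and 0.12 after adjustment over the 6 such pairs compared. With the mean over each gene's probe sets this difference was 0.83.

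Krt6a and Krt6b are neighbouring, closely related type II genes of a family known from hair follicles and activated epidermis, and Krt17 is their usual type I partner. Krt6a read 10.69, 10.41 and 10.91 in controls and 12.57, 11.46 and 11.26 in knockouts in its brightest probe set. The lowest knockout lay above the highest control, and knockout 1 stood well above the others. The means were 10.7 ± 0.25 and 11.8 ± 0.71, a difference of 1.09 (0.33 to 1.85), or 2.13-fold. The other probe sets gave 1.13 (0.17 to 2.09) and 0.88 (0.047 to 1.72), each without overlap. Without knockout 1 the difference of the brightest was 0.69.

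Krt6b was read by a single probe set at a low level, with 4.77, 4.73 and 5.04 in controls and 6.01, 5.40 and 5.10 in knockouts. Knockout 3 lay 0.065 above its replicate-number counterpart, control 3, so that the groups were barely apart. The difference was 0.66 (0.14 to 1.17), and 0.41 without knockout 1. Because Krt6a and Krt6b are near copies, signal of the one could appear in probes of the other, and the part of this in either value was not tested. Krt6a minus Krt6b within arrays was higher in the knockout by 0.43 (exact permutation p = 0.1, adjusted 0.12), and by 0.28 without knockout 1.

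Krt17, which marks hair placodes as well as periderm, did not follow Krt6a across the arrays. Its brighter probe set read 8.21, 8.35 and 8.58 in controls and 8.44, 9.22 and 8.21 in knockouts. Knockout 2 was the highest array, and knockout 3 was level with the lowest control. The difference was 0.24 (−0.34 to 0.82), and without knockout 2 it was −0.057. The dim probe set, at 3.91 and 4.03, differed by 0.12 (−0.098 to 0.34). Krt6a minus Krt17 within arrays was higher in the knockout by 0.85, but the groups overlapped (exact permutation p = 0.3, adjusted 0.3), and it was 0.36 without knockout 1 and 1.30 without knockout 2.

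Krt7 is a type II keratin of simple and glandular epithelia that can pair with Krt19. It read 10.03, 9.33 and 9.92 in controls and 11.53, 10.38 and 10.30 in knockouts. All knockouts lay above all controls, with knockout 1 the highest. The means were 9.76 ± 0.38 and 10.7 ± 0.69, a difference of 0.98 (0.18 to 1.77), or 1.97-fold. Without knockout 1 it was 0.58. Krt19, the type I keratin that lacks the usual tail domain, read 12.53, 12.04 and 11.93 in controls and 13.00, 12.38 and 12.15 in knockouts. Control 1 lay above knockouts 2 and 3, and the difference was 0.35 (−0.22 to 0.91). Krt7 minus Krt19 within arrays was higher in the knockout by 0.63, without overlap (exact permutation p = 0.1, adjusted 0.12).

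Krt8 and Krt18 are the obligate type II and type I pair of simple epithelia, which in skin are also made by Merkel cells, the touch receptors of the epidermis. Krt8 read 10.46, 10.23 and 9.94 in controls and 11.10, 10.41 and 10.22 in knockouts. The groups overlapped, with control 1 above knockouts 2 and 3. The difference was 0.36 (−0.19 to 0.92), and the other probe sets gave 0.42 (−0.17 to 1.01) and 0.38 (−0.21 to 0.98). Krt18 read 9.76, 9.25 and 8.98 in controls and 10.11, 9.33 and 9.00 in knockouts. Each group spanned much of the other, and the difference was 0.15 (−0.55 to 0.86). Krt18 thus had the smallest difference of the 10, and it was −0.16 without knockout 1 and −0.024 without control 3. Krt8 minus Krt18 within arrays was higher in the knockout by 0.21 (exact permutation p = 0.1, adjusted 0.12). The groups were barely apart, with control 2 at −0.0086 and knockout 1 at −0.0012 around the 6-array mean and control 1 lowest at −0.28, and without control 1 the difference was 0.12. Krt13 minus Krt8, the remaining pair, was higher by 1.47 without overlap (exact permutation p = 0.1, adjusted 0.12), and by 0.62 with the mean over each gene's probe sets.

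Krt23 is a type I keratin of several epithelia. It read 6.57, 6.75 and 7.41 in controls and 8.40, 7.56 and 7.70 in knockouts. The groups did not overlap, although control 3 lay near knockout 2. The means were 6.91 ± 0.44 and 7.89 ± 0.45, a difference of 0.98 (0.33 to 1.62), or 1.97-fold. Without knockout 1 it was 0.72. By rank of the difference among 18193 genes, Krt6a stood at 49, Krt7 at 60, Krt23 at 61 and Krt6b at 130, while Krt18 stood at 2240.

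**Figure D2:**
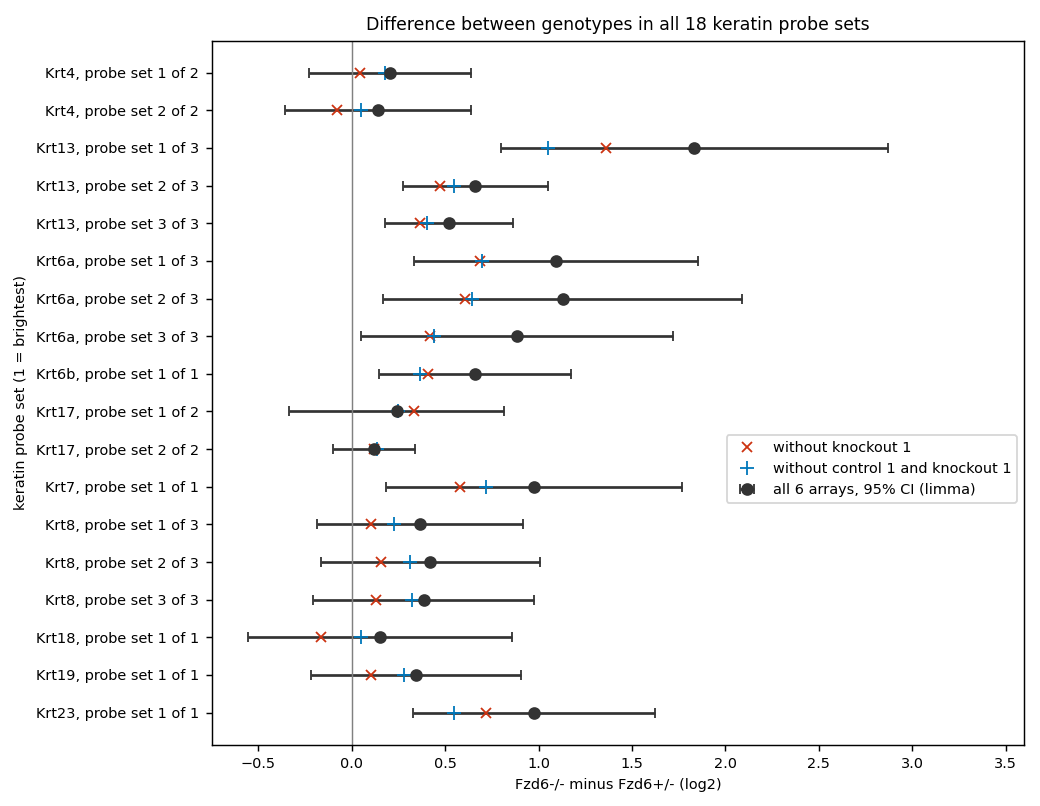
Difference between genotypes (knockout minus control, log2, x axis) for all 18 keratin probe sets (y axis, the brightest of a gene first). Points and bars give the limma estimate and its 95% confidence interval, crosses the estimate without knockout 1, and plus signs the estimate without both replicate 1 arrays. All 18 points lie above 0, and 9 intervals, those of Krt13, Krt6a, Krt6b, Krt7 and Krt23, do not reach 0.

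Knockout 1 carried much of these differences. It was the highest of the 6 arrays in 9 of the 10 keratins, the exception being Krt17. Without it 9 of 10 keratins were higher in the knockout with a median of 0.37, and without both replicate 1 arrays all 10 were, with a median of 0.32. Leaving out knockout 1 moved Krt6a, Krt6b and Krt7 by more than the 1.5 times used as a limit, as given above. It also left Krt8 at 0.10, Krt19 at 0.10 and Krt4 at 0.043.

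The arrays carry replicate numbers. Deviations from the group means over all probe sets correlated at 0.568, 0.359 and 0.124 between the arrays of numbers 1 to 3. Control 2 correlated more with knockout 3 (0.422) than with knockout 2, so pairing by number is uncertain for numbers 2 and 3. Within number 1 all 10 keratins were higher in the knockout, with a median difference of 0.94, within number 2 all 10 with 0.74, and within number 3 it was 8 of 10 with 0.25. Medians over all genes were −0.016, 0.021 and 0.011. Krt13 differed by 3.41, 1.43 and 0.67 within numbers 1 to 3, Krt6a by 1.88, 1.05 and 0.35, and Krt7 by 1.50, 1.05 and 0.38. Krt17 at −0.37 and Krt4 at −0.013, both in number 3, were the only values below 0. In all 3 numbers 8 of the 10 keratins were higher, against 19.1% of all genes. Y-linked genes had means of 3.12 in control 2 and 3.15 in knockout 3, and 7.88 to 8.39 elsewhere. Within numbers 2 and 3 a low array thus faced a high one, so that difference and genotype cannot be told apart there. With the replicate number as a block in limma, 3 of 45037 probe sets were called (0.00666%) and 0 of the 18 keratin probe sets, the smallest adjusted p being 0.335.

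**Figure D3:**
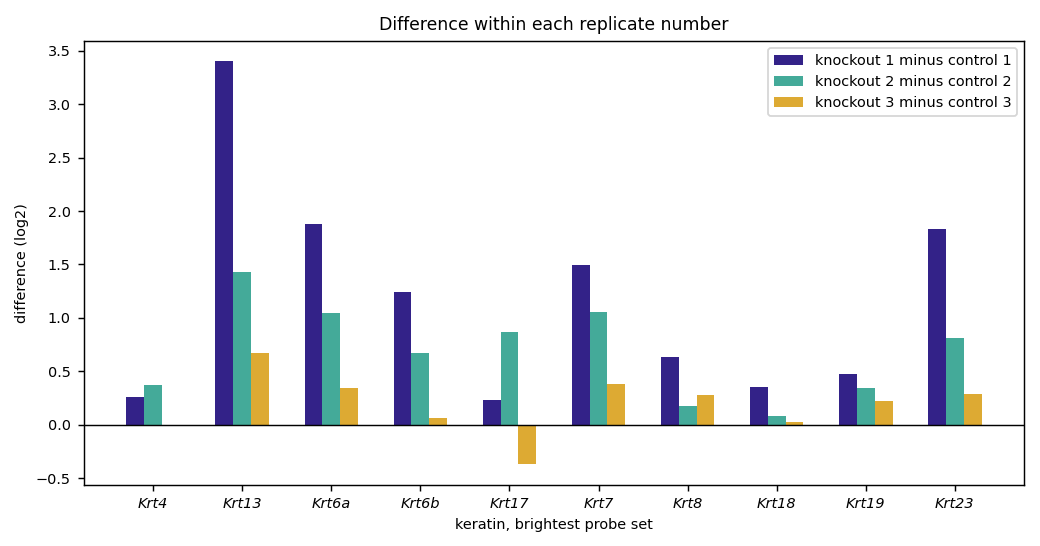
Knockout minus control (log2, y axis) in the brightest probe set of each keratin (x axis), within each replicate number (bar colours). Number 1 gives the tallest bar in 8 genes, Krt4 and Krt17 being the exceptions, and only Krt17 and Krt4 fall below 0, both in number 3. Within numbers 2 and 3 the arrays also differ in the level of Y-linked genes.

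Other genes of the periderm and epidermis were read on the same arrays, with no test of whether they followed the keratins. Of 15 periderm genes that are not among the 10, 13 had higher values in the knockout, with a median of 0.27, and 0 were called in either direction. The small proline-rich protein gene Sprr3 (1.35, 0.45 to 2.25), the gasdermin Gsdma (1.30, 0.33 to 2.27) and the small GTPase Rhov (0.28, 0.053 to 0.51) had the smallest p of that list. Gsdma was dim, at 5.32 to 5.97 in controls, below the array medians. Periderm genes were not all alike, since the claudin genes Cldn6 (−0.31, −0.64 to 0.026) and Cldn4 (0.063, −0.41 to 0.54) and the GABA receptor subunit Gabrp (−0.31, −0.71 to 0.085) gave values below or near 0. These and the next genes outside the 3 smallest p were chosen after their values were seen.

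Among 10 measured regulators of periderm and stratification, 9 had higher values and 0 were called, with a median of 0.16. The transcription factors Klf4 (0.36, 0.067 to 0.66) and Grhl1 (0.29, −0.11 to 0.69) and the differentiation factor Kdf1 (0.25, 0.0093 to 0.50) led by p. Trp63 was the lower one (−0.10, −0.73 to 0.53). Several of the higher ones were small, such as Ripk4 (0.10, −0.40 to 0.60), Ovol1 (0.079, −0.63 to 0.79) and Grhl3 (0.0027, −0.52 to 0.53). All 12 other epidermal keratins had higher values, from 0.21 to 0.66, again with 0 called. Krt79, of the upper follicle (0.66, 0.18 to 1.13), Krt80 (0.57, 0.15 to 0.99) and Krt75, of the companion layer (0.25, 0.047 to 0.45), had the smallest p. In controls Krt79, at 5.18 to 5.72, and Krt75, at 5.65 to 5.70, lay below the array medians. Krt16, another partner of Krt6a, read 0.21 (−0.30 to 0.72). Of 10 genes whose proteins anchor or bind keratin filaments, 9 had higher values and 0 were called, and the smallest p belonged to the plakophilin Pkp1 (0.30, −0.0057 to 0.60) and the plakins Evpl (0.37) and Ppl (0.33). Of 12 suprabasal and cornified genes 11 had higher values, with a median of 0.40 and 0 called. In 5 of them all knockouts lay above all controls, against 6.99% of all genes. Ivl (1.02, 0.43 to 1.61), Cnfn (1.25, 0.48 to 2.01) and Sprr1a (1.12, 0.41 to 1.83) had the smallest p. Differences of this size were thus not particular to the 10 keratins.

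A list of 12 genes called pan-epidermal was read as well, none of them among the 10 keratins. Several, such as Krt5, Krt14 and Krt15, are keratins of the basal layer, so the list does not measure the share of suprabasal layers or periderm. Of the 12 genes, 9 had higher values in the knockout, at a median of 0.14, and 0 had groups that did not overlap. The list's mean deviation from the 6-array mean (log2) was 0.013, 0.099 and −0.29 in controls and 0.21, 0.16 and −0.19 in knockouts. The suprabasal and cornified list differed, at −0.325, −0.322 and −0.106 in controls and 0.669, 0.0923 and −0.00839 in knockouts. When every array was shifted to the same pan-epidermal mean, the difference of every gene fell by the same amount. As that amount was below the smallest keratin difference, all 10 stayed higher by arithmetic alone, with a median of 0.39. The median of all genes moved to −0.12. The part of epidermal share in the keratin differences was not tested by this shift. Krt13 then differed by 1.71, Krt6a by 0.97 and Krt18 by 0.030. With that mean as a covariate 9 of 10 were higher, with a median of 0.40, and Krt18 was at −0.051.

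Fibroblast and endothelial genes were lowest where the keratins were highest. The 8 fibroblast genes lay at −0.54 in knockout 1 and −0.26 in control 1, and between 0.14 and 0.28 in the other arrays. The 7 endothelial genes lay at −0.88 and −0.35 in those arrays and between 0.25 and 0.35 elsewhere. The 10 keratins lay at 0.88 in knockout 1 and −0.30 in control 1 on average. They were not alike in control 1. There the 5 with separate groups lay at −0.70 and the 5 with overlapping groups at 0.098. Control 1 was the highest control in 5 of the 10. The part of these tissue shares in the keratin differences was not tested.

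Other cells that make simple keratins were read through their own markers. Of 10 Merkel cell genes 7 had higher values, at a median of 0.054, and 0 were called. The list's means ran from −0.049 to 0.046 in controls and from −0.073 to 0.13 in knockouts. Its regulator Atoh1 read 5.49 to 5.69 in controls and 5.64 to 5.82 in knockouts, below the array medians, and Krt20 differed by 0.16 (−0.12 to 0.43). Of 6 mesothelial genes 5 had higher values, with list means of −0.48, −0.33 and 0.034 in controls and 0.56, 0.14 and 0.077 in knockouts. Msln (1.40, 0.50 to 2.30) and the uroplakin Upk3b (1.13, 0.21 to 2.05) had the largest differences, whereas the mesothelial regulator Wt1 was lower (−0.24, −0.47 to −0.0037) at 4.75 to 5.21 and Lrrn4 read 3.75 to 4.25. Upk1b, another uroplakin, read 10.45 to 11.60 and differed by 0.44 (−0.13 to 1.01). Wt1, Lrrn4, Atoh1 and Krt20 lay below the array medians on all arrays, whereas Upk1b and, of the Merkel list, Isl1 (6.99 to 8.14) and Syt7 (6.96 to 7.18) lay above them. The part of mesothelial or Merkel cells in the keratin values was not tested. Of 8 measured placode and follicle genes 5 had higher values, at a median of 0.041, among them Lhx2, a placode transcription factor (0.68, 0.29 to 1.08). Lhx2 was dim too, at 4.88 to 5.36 in controls, below the array medians. The 7 skeletal muscle genes had 3 higher and 4 lower values.

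**Figure D4:**
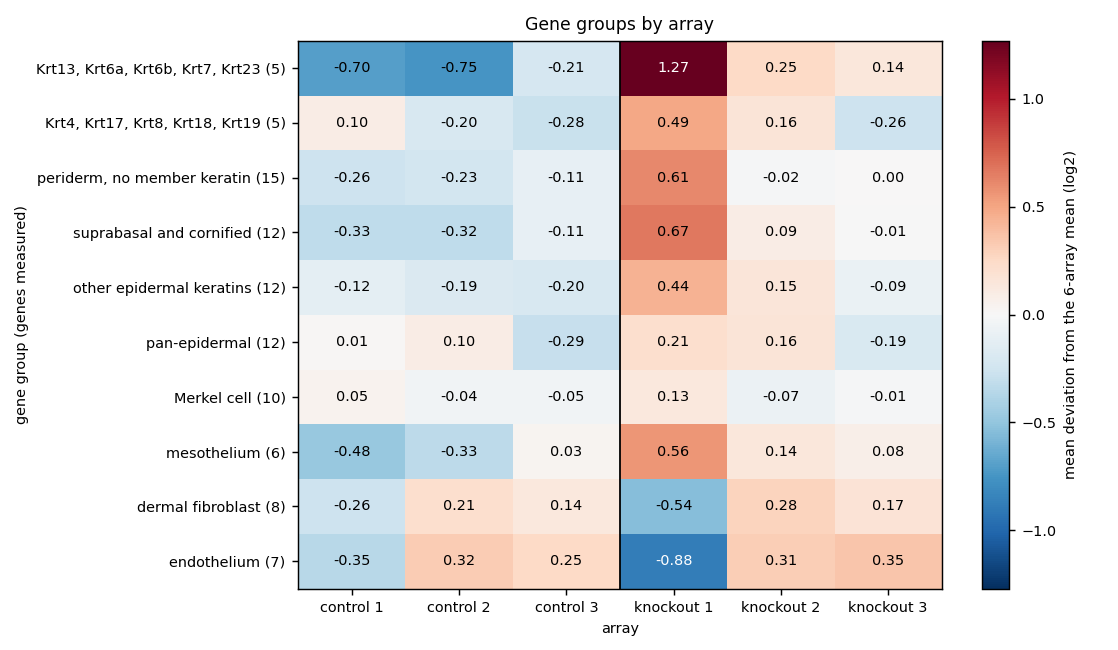
Mean deviation from the 6-array mean (log2, colour and printed value) of gene groups (rows, with the number of genes measured) on each array (columns, controls left of the line). The 5 keratins with separate groups run from −0.75 in control 2 to 1.27 in knockout 1, and the 5 with overlapping groups from −0.29 to 0.49. The split into these 2 rows follows from the values themselves.

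The genes whose profile over the 6 arrays was most like that of a keratin were ranked by Pearson correlation among 1571 genes above the median level with an SD of at least 0.3. For Krt13 these were Fhdc1 (r = 0.996), Rbp2, a retinol-binding protein (0.995), Eps8l1 (0.995), Lrrc28 (0.994) and Dynap (0.994). For Krt6a they were Ly6g6e (0.999), the keratin Krt80 (0.996), Rnf222 (0.996), Hsd17b7, an enzyme of cholesterol synthesis (0.994), and Ankrd35 (0.993). For Krt8 they were Ap1m2, an adaptor subunit of epithelial cells (0.996), the non-muscle myosin Myh14 (0.991), Mocos (0.989), the melanosome protein Pmel (0.986) and Plekhh1 (0.986). No gene was in more than 1 of the 3 lists. With 6 arrays such values are common, since 60, 110 and 27 genes passed 0.95 for Krt13, Krt6a and Krt8.

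Keratin genes lie in 2 clusters. In the GRCm38.p6 annotation Krt4, Krt6a, Krt6b, Krt7 and Krt8 lie on chromosome 15 with Krt18 beside Krt8, and Krt13, Krt17, Krt19 and Krt23 on chromosome 11. Fzd6 is also on chromosome 15, at chr15:39006149-39038192, and the 6 keratins there lie 62.4 to 63.0 megabases away. The 6 on chromosome 15 differed by 0.15 to 1.09, with a median of 0.51 and separate groups in 3. The 4 on chromosome 11 differed by 0.24 to 1.83, with a median of 0.66 and separate groups in 2. Higher values were found on both chromosomes, and whether the place of a gene bears on its difference was not tested.

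Start regions were in RefSeq's table (GRCm38.p6) for 5 of the 10 genes, of which Krt13, Krt7 and Krt23 had separate groups and Krt8 and Krt18 had not. They are shown to set the start regions of both kinds side by side. Each runs from 100 bases before the annotated start to base 15 of the transcript, 5′ to 3′ on the gene's strand. Capitals mark ATAAA, the core letters of a TATA box, on the gene's strand between positions −60 and 10 (with a preceding T where it reads TATAAA), and GGGNGTG, a KLF-type motif, on either strand.
Krt13, chr11:100121552-100121666, minus strand: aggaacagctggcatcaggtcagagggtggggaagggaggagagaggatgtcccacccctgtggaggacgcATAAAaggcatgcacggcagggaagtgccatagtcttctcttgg
Krt23, chr11:99493106-99493220, minus strand: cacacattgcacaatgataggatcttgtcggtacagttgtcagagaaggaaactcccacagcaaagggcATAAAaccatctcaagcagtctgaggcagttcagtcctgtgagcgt
Krt7, chr15:101412303-101412417, plus strand: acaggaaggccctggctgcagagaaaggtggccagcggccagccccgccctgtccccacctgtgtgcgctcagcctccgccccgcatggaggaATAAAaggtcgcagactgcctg
Krt8, chr15:102004328-102004442, minus strand: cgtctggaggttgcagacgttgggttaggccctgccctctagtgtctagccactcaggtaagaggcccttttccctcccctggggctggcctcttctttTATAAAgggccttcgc
Krt18, chr15:102028116-102028230, plus strand: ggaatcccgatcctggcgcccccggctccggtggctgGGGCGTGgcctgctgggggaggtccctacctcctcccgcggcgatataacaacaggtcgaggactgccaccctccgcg

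ATAAA was found in Krt13 at −29, in Krt23 at −31, in Krt7 at −7 and in Krt8 at the start itself, and not in Krt18. It occurs in that window in 8.38% of the 32851 start regions of the table, and TATAAA in 3.14%. Over the whole 300 bases, both strands, the AP-1 motif TGANTCA was found in Krt13 alone, at −196 (7.81% of all start regions), and GGGNGTG in Krt18 alone, at 3 places (29.2%). The grainyhead motif AACCNGTT was in none of the 5 (2.09%). ATAAA thus lay before the start in Krt13, Krt23 and Krt7, whose groups were separate, and not before it in Krt8 or Krt18. The longer TATAAA was in Krt8 alone. Krt18 holds tataa before its start, which ATAAA does not match and which is not marked. Which genes have a match therefore depends on the letters chosen. These letters were chosen with the start regions in view, and only 5 genes were read. Whether matches follow the split by separate or overlapping groups cannot be told from them and was not tested.

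The targeted gene was read as a check of the labels. Fzd6 was lower in the knockout in its brightest probe set (−0.44, −0.78 to −0.11) and its dimmest (−0.67, −0.87 to −0.47), and not in the remaining one (−0.0097). Both lowered probe sets had groups without overlap, as had 11.6% of all probe sets in either direction. Neither was called (limma adjusted p = 0.909 for the brightest and 0.864 for the dimmest), so this fit did not call the targeted gene itself. The place of the Fzd6 probes relative to the deleted part is not known here. Arrays correlated at 0.985 to 0.996 with each other. Y-linked genes had a mean of 3.12 in control 2 and 3.15 in knockout 3, while the remaining arrays gave 7.88 to 8.39. Control and knockout thus had 1 low array apiece, but under different replicate numbers, so within those numbers a low array faced a high one. The 10 keratins lay at −0.48 in control 2, their lowest, and at −0.059 in knockout 3.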

How the data were processed

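RNA of 6 back skin samples was hybridised to MOE430 2.0 arrays, per the labels' protocols. The deposited values are RMA summaries, per the submitters' processing notes, and were read as log2 because they run from 2.39 to 14.8 with medians of 5.99 to 6.03. RMA equalises the arrays' distributions and shrinks differences of dim probe sets. Scanner files were not used here, so no detection calls were made.

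Of 45101 rows, 64 array controls were left out, and all other 45037 probe sets were tested, dim ones included. Names came from the platform annotation, updated by Entrez identifier to the GRCm38.p6 gene table: 34945 probe sets had 1 symbol, 932 several and 9160 none, and 34741 matched the table. The brightest probe set stood for a gene. Genotypes were compared in limma 3.58.1 under R 4.3.3 (no covariates, Benjamini-Hochberg over all 45037, threshold 0.05, 95% intervals) and tested on simulated data. Within-array differences of 6 keratin pairs were compared by exact permutation (scipy 1.17.1). Whether each sample holds 1 embryo is not stated, so p-values measure the spread between these samples, and 3 arrays per group limit the precision.

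The 10 keratins and the 13 gene lists (120 genes, 115 measured) were chosen with earlier results of these data known. Named genes are the keratins, Fzd6, the 3 of a list with the smallest p (given for the lists closest to the keratins) and the 5 most correlated with Krt13, Krt6a or Krt8. Others named were chosen after their values were seen. Deviations from group means of same-numbered arrays correlated at 0.568, 0.359 and 0.124, but control 2 correlated more with knockout 3 (0.422). Pairing by number is thus uncertain, and the main fit and the permutation tests did not pair arrays. The replicate numbers entered only the within-number differences and the replicate block. Alternatives were a variance trend, a level filter, further quantile normalisation, centring, array weights and the replicate block. Further ones were left-out arrays, 2 adjustments for the mean of the pan-epidermal list and other probe set choices.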

Additional observations from a re-analysis of the deposited data

How the results depend on the processing

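Of 378 recomputed values under the alternatives, 371 kept their call, or, for counts and the median, stayed within 1.5 times or 0.327 (the SD of the keratin median between arrays of a group). A kept call here means a difference that passed no test in either fit, and the size of many moved by more, as given above for the fits without knockout 1. The count of called probe sets was 0 in every fit but 2: it was 3 on the whole array, and 0 among the keratins, with the replicate block, and 70 on the whole array with 3 keratin probe sets when arrays were shifted to equal pan-epidermal means. These 3 were Krt13 (1.71, limma adjusted p = 2.54e-09) and 2 of Krt6a (0.97 and 1.01, limma adjusted p = 0.0289 and 0.0158). That shift adds the same change to every probe set of an array, and the fit then gave all probe sets 1 common variance, which narrowed the interval of Krt13 to 1.25 to 2.18 from 0.80 to 2.87. The replicate block changed no other call. Over all 18 probe sets 18 were higher in the knockout.

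No keratin was called in any fit without 1 array, where the smallest adjusted p was 0.532 (limma), the count of higher keratins was 9 or 10 and their median ran from 0.37 (without knockout 1) to 0.70 (without knockout 3). Among 266 recomputed keratin differences 6 changed sign, none of them called: Krt18 in 3 fits, Krt17 in 2 and the dimmer Krt4 probe set in 1. The filter on level left out Krt6b and the dim probe sets of Krt13 and Krt17. Krt6b, read at 4.73 to 6.01, these dim probe sets and the control values of the brightest Krt13 probe set lie where RMA values compress differences, so sizes there are least certain.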
